A study of Mus musculus with 12 samples.

Results

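The regenerating (Reg) family lectins and resistin-like molecule beta are secreted proteins with which the gut epithelium meets the microbes of the lumen. A set of 6 was taken by gene symbol, namely Reg3b, Reg3g, Reg3a, Reg1, Reg4 and Retnlb. Of these, 5 had a row among the 15855 genes of the count table, and all 5 passed the filter on low counts. Retnlb had no matching row and was not analysed here.

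RNA was sequenced from live epithelial cells (EpCAM+7AAD-) that had been sorted from the whole small intestine of male C57BL6/J mice, 8 to 12 weeks of age, at 24 h after surgery. In the 5 pMCAO mice a filament permanently blocked the right middle cerebral artery, a model of ischaemic stroke, and in the 7 sham mice the surgery was done without blocking the artery. All mice were anaesthetised with ketamine and xylazine, and no other treatment or genetic change was given in either group. Each library is labelled as a biological replicate, and the comparison asks which epithelial transcripts differ a day after stroke.

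Reg3b and Reg3g are C-type lectins released by enterocytes and other epithelial cells, and mouse Reg3g binds the cell wall of Gram-positive bacteria and helps to keep them away from the epithelial surface. Their transcription in the gut is known to be raised by microbial signals through MyD88 and by IL-22 and IL-6 type cytokines through STAT3. Reg3a and Reg1 belong to the same lectin family, and Reg1 was first known from the pancreas. Reg4 is found in secretory cells, among them enteroendocrine and goblet cells, and Retnlb is a goblet cell product with antibacterial activity.

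The libraries held between 7418730 and 31925579 counts, of which 24.2 to 62.02% were mitochondrially encoded. Libraries numbered 58 to 61 in the titles (sham replicates 1 to 3 and pMCAO replicate 1, the early set) stood apart from libraries 62 to 72 (the later set) on the first principal component, which carried 40.5% of the variance. They also held fewer detected genes, 13386 to 14712 against 15343 to 15766. The tests below therefore carried the library set as a covariate, and results are also given for the later set alone, with 4 sham and 4 pMCAO libraries. The sorted cells carried epithelial markers, with 10 of 10 enterocyte and 10 of 10 goblet cell markers in the table, whereas 8 of 10 stromal and vascular markers had no row. Of the immune cell markers 13 of 13 had a row, and they summed to 99.8 to 741 CPM. CPM (counts scaled to library size) are corrected by TMM, a normalisation for differences in RNA composition between libraries.

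None of the 5 measured members was called different between pMCAO and sham mice by limma-voom. A call needed an adjusted p (Benjamini-Hochberg, over all genes) no higher than 0.05 together with a log2 fold change of 1 or more in either direction. Over all 14462 genes tested, 16 were called (0.111%). Reg3b and Reg3g, 2 of the 5 members, had an unadjusted p under 0.05 and were both higher in pMCAO mice, as were 5.43% of all genes tested. No member was lower at that level (0 of 5), against 4.60% of all genes. With edgeR's quasi-likelihood test 0 members were called and 2 had an unadjusted p under 0.05, and with DESeq2 both counts were 0. The median log2 fold change of the 5 members was 0.24, and that of all genes was 0.02.

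Reg3b, the most abundant member, ranged in sham mice from 144 CPM to 2044 CPM with a median of 405 CPM. In pMCAO mice it measured 889, 1296, 743, 1321 and 1840 CPM in replicates 1 to 5. All 5 pMCAO values lay above the sham median, but 0 of 5 exceeded the highest sham value, that of sham replicate 4, so the groups overlapped. Sham mice averaged 651 ± 657 CPM (SD, n = 7) and pMCAO mice 1218 ± 429 CPM (SD, n = 5). The fitted log2 fold change was 1.03 ± 0.37 (SE; 95% interval 0.24 to 1.81), with an unadjusted p = 0.0134 and an adjusted p = 0.345 by limma-voom. Within the later set alone it was 0.66 (unadjusted p = 0.152).

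Reg3g, its close relative, ranged in sham mice from 54.0 CPM to 757 CPM with a median of 169 CPM. The 5 pMCAO mice measured 293, 784, 201, 417 and 830 CPM. All 5 again lay above the sham median and 2 of 5, replicates 2 and 5, above the highest sham value, so the groups overlapped here too. Sham mice averaged 236 ± 249 CPM (SD, n = 7) and pMCAO mice 505 ± 286 CPM (SD, n = 5). The fitted log2 fold change was 1.13 ± 0.45 (SE; 95% interval 0.18 to 2.08), with an unadjusted p = 0.0220 and an adjusted p = 0.389 by limma-voom. In the later set alone it was 0.94 (unadjusted p = 0.118). In RNA from a bulk population, more cells that make a transcript and more of that transcript per cell cannot be told apart.

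**Figure D1:**
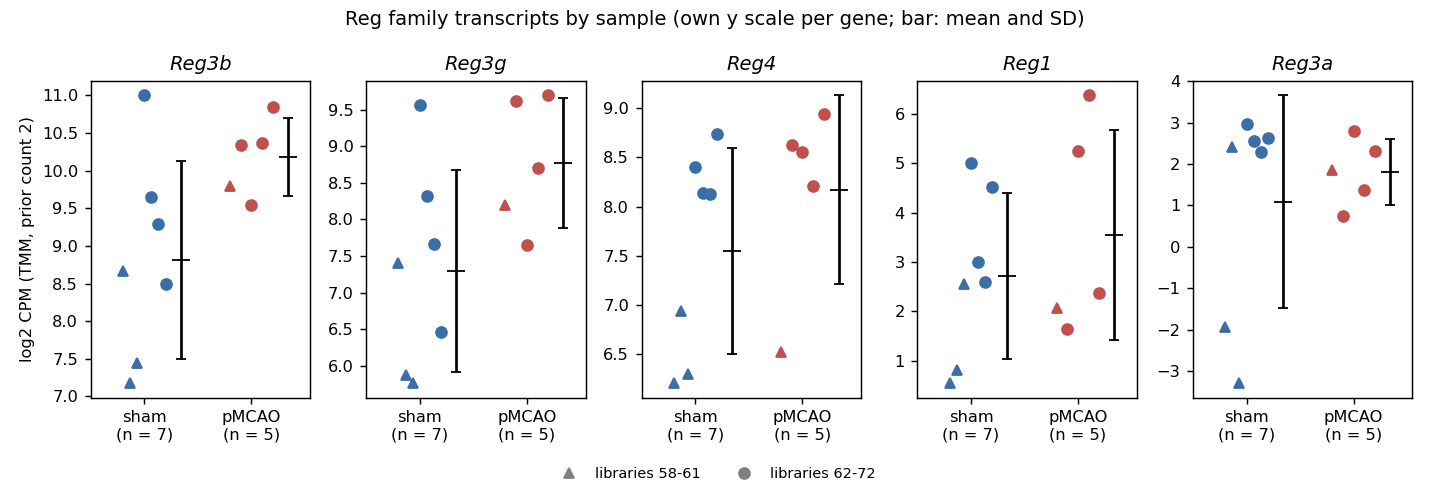
Level of each measured member in every library, as log2 CPM (TMM, prior count 2) with a separate y axis per gene, for 7 sham (blue) and 5 pMCAO (red) libraries. Triangles are libraries 58 to 61, circles are libraries 62 to 72, and the black bars give the mean and SD of the group. For Reg3b and Reg3g all 5 pMCAO points lie above the sham median yet overlap the sham range, with 2 Reg3g points above it, while for Reg4 the triangles of both groups lie below every circle.

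The size of the Reg3b and Reg3g differences leaned on single libraries. In the early set the only pMCAO library, replicate 1, lay above all 3 sham libraries, by 2.04 log2 units for Reg3b and 1.85 for Reg3g over their mean. In the later set the corresponding differences of mean log2 CPM were 0.66 and 0.91. Without pMCAO replicate 1 the fitted log2 fold change of Reg3b was 0.68 (unadjusted p = 0.127, limma-voom), and without sham replicate 4 it was 1.38 (unadjusted p = 0.000224, adjusted p = 0.100). For Reg3g the range over single left-out libraries was 0.77, without sham replicate 7, to 1.49, without sham replicate 4. With sample quality weights the fold changes were 0.62 for Reg3b and 0.67 for Reg3g. The unadjusted p of Reg3g by limma-voom was above 0.05 without sham replicate 7 (0.0868) and without pMCAO replicates 1 (0.0909), 2 (0.0535) or 5 (0.0583).

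**Figure D2:**
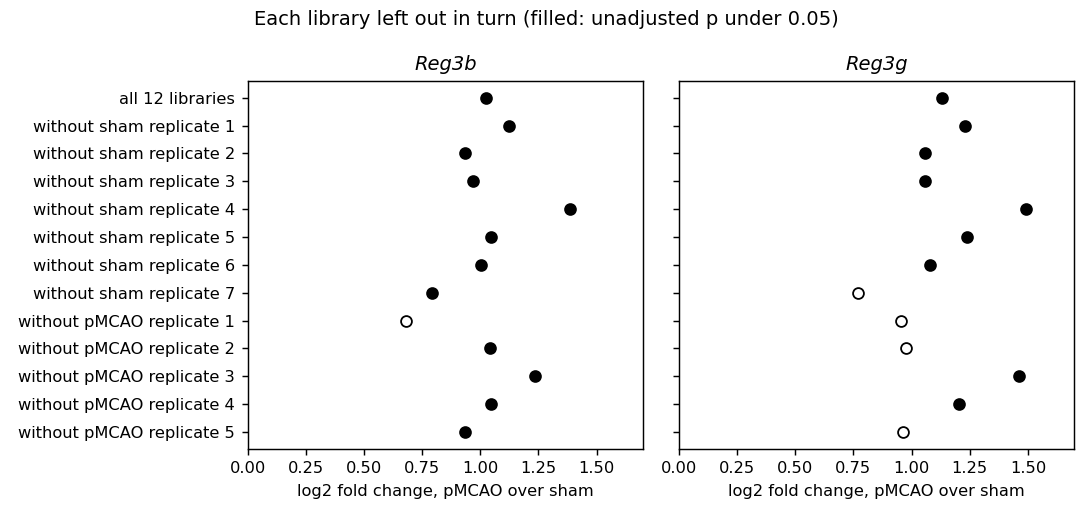
Log2 fold change of Reg3b (left) and Reg3g (right), pMCAO over sham, in the limma-voom fit with all 12 libraries and with each library left out in turn. Filled points have an unadjusted p under 0.05. All points lie above 0, from 0.68 to 1.38 for Reg3b and from 0.77 to 1.49 for Reg3g, and the open points are those without pMCAO replicate 1 for Reg3b and without sham replicate 7 or pMCAO replicates 1, 2 or 5 for Reg3g.

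Summed markers of enterocytes and of immune cells are given beside the Reg3b and Reg3g values. The summed level of the 10 enterocyte markers was 56986 CPM in pMCAO replicate 1 against 21519 to 25549 CPM in the 3 sham libraries of the early set. In the later set it was 15551 to 26563 CPM in sham and 19667 to 28578 CPM in pMCAO libraries. All 10 of these markers had a positive log2 fold change in the limma-voom fit, with a median of 0.56. The summed level of the 13 immune markers overlapped between groups, at 106 to 741 CPM in sham and 99.8 to 660 CPM in pMCAO libraries, with 0 called. The part of either cell type in the Reg3b and Reg3g differences was not tested.

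The levels of Reg3b and Reg3g went together from mouse to mouse. In every one of the 12 libraries Reg3b had more counts than Reg3g, by a ratio of 1.65 to 4.09 with a median of 2.86. On the log2 scale the ratio averaged 1.52 ± 0.28 (SD, n = 7) in sham mice and 1.40 ± 0.46 (SD, n = 5) in pMCAO mice, and the difference of -0.12 was within the spread (two-sided exact permutation test over 792 splits, p = 0.596, smallest possible p = 0.00126). Over the 8 libraries of the later set, the Pearson correlation of their log2 CPM was 0.961 (exact permutation p = 0.000422, adjusted p = 0.00422 over the 10 pairs of members). Spearman's rho was 0.857 (exact permutation p = 0.0107, adjusted p = 0.107), and Pearson's r was 0.923 without the 2 libraries farthest from the median, sham replicates 4 and 7. The 9 other pairs had adjusted p of 0.976 for Pearson's r by the exact permutation test. Both genes were read from the same libraries and share their depth and scaling. The group was left in these correlations, and in the later set both genes averaged higher in pMCAO than in sham libraries.

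**Figure D3:**
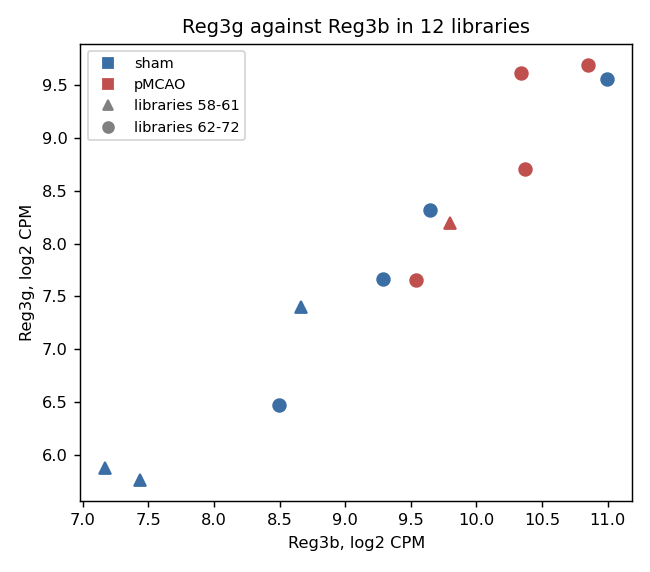
Reg3g against Reg3b, both as log2 CPM (TMM, prior count 2), in 7 sham (blue) and 5 pMCAO (red) libraries, with triangles for libraries 58 to 61 and circles for libraries 62 to 72. Points of both groups and both sets lie along one line, with Reg3b above Reg3g in all 12.

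These genes sit at the ends of a cluster of 6 protein-coding genes on mouse chromosome 6 (GRCm38, GENCODE M21) that spans 98.2 kb, in the order Reg3b, Reg3d, Reg3a, Reg2, Reg1, Reg3g. Reg3b (ENSMUSG00000071356) lies at chr6:78370657-78373466 on the plus strand and Reg3g (ENSMUSG00000030017) at chr6:78466269-78468872 on the minus strand. Reg3a (ENSMUSG00000079516) at chr6:78380709-78383827 and Reg1 (ENSMUSG00000059654) at chr6:78422711-78428667 lie between them on the plus strand. Reg4 (ENSMUSG00000027876) is outside the cluster at chr3:98222156-98236748 and Retnlb (ENSMUSG00000022650) at chr16:48816856-48818892. No exon of a member overlaps an exon of another gene in that annotation. Reg2 and Reg3d had no matching row and were not analysed here. Transcripts of Reg3b and Reg3g were identical at 74.7% of aligned bases, and their longest exact shared run was 35 bases. Reg1 and Reg2 were identical at 81.5%, with a longest run of 19 bases.

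The promoter windows of Reg3b and Reg3g are shown because these are the members whose levels moved together. They cover 250 bases before to 50 after the annotated start site (RefSeq, GRCm38.p6), 5′ to 3′ on the strand of the gene, at chr6:78370635-78370934 (plus) and chr6:78468825-78469124 (minus). RefSeq and GENCODE place some starts differently. The GENCODE gene of Reg3b begins at 78370657, so most of its window lies inside that gene, and the Reg1 window searched below lies wholly inside the GENCODE gene of Reg1. Capitals mark the longest run that the windows share, 29 bases from -20 to 9 relative to the start site in both.
Reg3b: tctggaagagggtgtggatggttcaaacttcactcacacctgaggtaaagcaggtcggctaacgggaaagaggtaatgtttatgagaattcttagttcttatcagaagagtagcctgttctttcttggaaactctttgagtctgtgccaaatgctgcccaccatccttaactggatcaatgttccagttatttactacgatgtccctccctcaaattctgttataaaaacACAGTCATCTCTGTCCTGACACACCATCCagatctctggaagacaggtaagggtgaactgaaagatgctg
Reg3g: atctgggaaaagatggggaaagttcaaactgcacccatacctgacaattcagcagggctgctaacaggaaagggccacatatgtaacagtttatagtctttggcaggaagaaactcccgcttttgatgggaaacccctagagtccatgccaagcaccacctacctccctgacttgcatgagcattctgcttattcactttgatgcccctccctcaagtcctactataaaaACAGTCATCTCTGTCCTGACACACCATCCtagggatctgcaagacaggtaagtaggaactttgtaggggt

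The windows were identical at 71.4% of the 294 aligned bases. The TATA box letters TATAAA, searched on both strands, began 29 bases before the start site in Reg3b, 27 before it in Reg3g and 30 before it in Reg1, and were held by 14.2% of the 27025 promoter windows of that table. They also occurred on the opposite strand at -161 in Reg3g and at 36 in Reg1. The STAT-type letters TTCNNNGAA occurred once, as TTCTTGGAA at -129 in Reg3b, and were held by 8.47% of all windows. Neither motif was found in the windows of Reg3a or Reg4. A match describes the letters only.

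Reg4, a lectin of secretory cells, differed between the library sets more than between the groups. It measured 73.6 to 427 CPM in sham mice with a median of 280 CPM, and 91.6, 394, 377, 296 and 492 CPM in pMCAO replicates 1 to 5. The groups overlapped over most of their range, with means of 229 ± 138 CPM (SD, n = 7) and 330 ± 150 CPM (SD, n = 5). The log2 fold change was 0.20 ± 0.17 (SE; 95% interval -0.15 to 0.56, adjusted p = 0.727 by limma-voom), an interval that does not reach 1 log2 unit in this fit. All 4 early libraries, at 73.6 to 122 CPM, lay below all 8 later ones, at 280 to 492 CPM, and the lowest later value was 2.29 times the highest early one. Reg4 was the only 1 of the 5 members without overlap between the sets, as were 9.40% of all genes tested in that direction, and no test is given because the sets were recognised from these same transcriptomes. Markers of goblet and enteroendocrine cells were split the same way, as were those of tuft cells and colonocytes. The 10 goblet cell markers summed to 4145 to 8142 CPM in the early and 20624 to 55319 CPM in the later set. The 12 enteroendocrine markers summed to 297 to 504.1 CPM and 1868 to 4237 CPM. For the 8 tuft cell markers the sums were 20.9 to 59.6 CPM and 291 to 1295 CPM. For 3 colonocyte markers they were 8.29 to 24.9 CPM and 41.0 to 98.5 CPM, so the split was not particular to the cells named for Reg4. Markers of Paneth cells, also secretory, overlapped, with 9 markers summing to 10.8 to 21.7 CPM in the early and 18.4 to 95.5 CPM in the later set. Sums of enterocyte, immune and crypt markers also overlapped between the sets. The part of these cells in the Reg4 levels was not tested.

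Reg1 was expressed at a low and uneven level. It ranged in sham mice from 1.35 CPM to 31.9 CPM with a median of 5.97 CPM, and measured 4.1, 3.02, 37.9, 82.8 and 5.09 CPM in pMCAO replicates 1 to 5. Only pMCAO replicates 3 and 4 exceeded the highest sham value, and the other 3 lay below the sham median. The log2 fold change was 0.24 ± 0.77 (SE; 95% interval -1.38 to 1.86, adjusted p = 0.942 by limma-voom), and it turned to -0.45 without pMCAO replicate 3, -0.20 without pMCAO replicate 4 and -0.28 without sham replicate 6. Since Reg1 is abundant in the pancreas, 14 acinar markers were examined, of which only Clps and Cela1 had a row. Their summed level was 4.70 to 99.2 CPM in sham and 3.08 to 34.8 CPM in pMCAO libraries, and Clps was highest, at 93.5 CPM, in a sham library. The part of pancreatic RNA in the Reg1 values was not tested.

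Reg3a was close to the limit of detection in part of the libraries. Sham values ran from 0 to 7.78 CPM with a median of 5.18 CPM, and pMCAO replicates 1 to 5 measured 3.50, 1.59, 6.83, 2.48 and 4.87 CPM. The lowest values were both early sham libraries, replicate 3 with 0 counts, which allows a level of up to 0.404 CPM (3 counts), and replicate 1 with 2 counts. The groups overlapped throughout. The log2 fold change was -0.47 ± 0.52 (SE; 95% interval -1.57 to 0.63, adjusted p = 0.797 by limma-voom) and changed sign to 0.30 when the library set was left out of the fit. In the later set alone, Reg3a measured 4.76 to 7.78 CPM in sham and 1.59 to 6.83 CPM in pMCAO libraries.

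**Figure D4:**
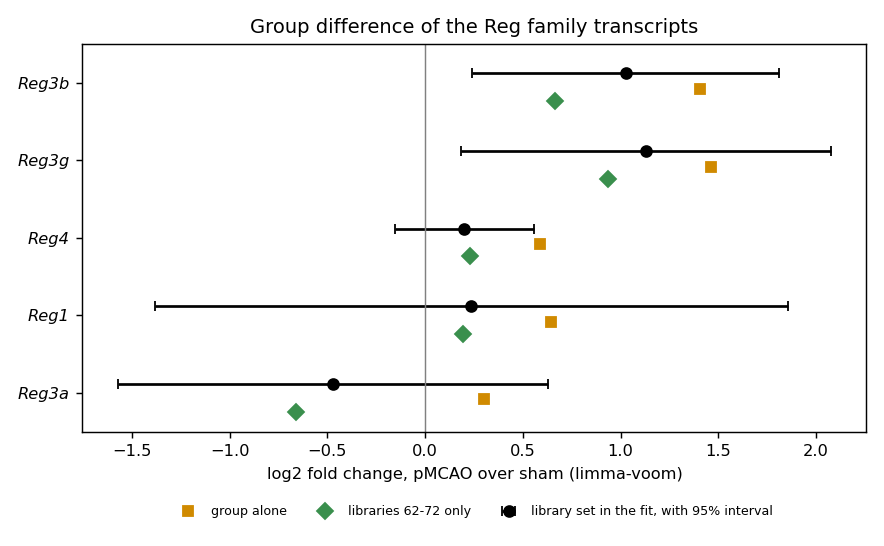
Log2 fold change of each measured member, pMCAO over sham, from limma-voom. Black points with bars are the fit with the library set and its 95% interval, squares the fit on the group alone, and diamonds the 8 libraries 62 to 72. The bars of Reg3b (0.24 to 1.81) and Reg3g (0.18 to 2.08) lie above 0 before adjustment for 14462 genes, the other 3 cross 0, and for Reg3a the square lies on the other side of 0.

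To compare levels between genes, CPM were divided by the length of the longest coding transcript in kilobases. On that scale the sham means were 831 CPM per kb for Reg3b, 306 for Reg3g, 224 for Reg4, 12.2 for Reg1 and 5.16 for Reg3a. The pMCAO means stood in the same order at 1555, 655, 323, 29.4 and 4.67 CPM per kb. Reg3b was above Reg3g and Reg4 above Reg1 in 12 of 12 libraries. The neighbours Reg3g and Reg4 did not separate, with Reg3g above in 7 of 12 libraries, or in 3 of 12 when all annotated exons were taken as its length. Reg1 was above Reg3a in 10 of 12.

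Reg3b, Reg3g and Reg1 varied more between mice than most genes of a like level. Within sets and groups the SD of log2 CPM was 0.82 for Reg3b, a larger spread than in 97.5% of the 120 genes whose mean CPM was within 2-fold of its own, for which the median SD was 0.34. For Reg3g the SD was 1.09, above 99.3% of 444 such genes, and for Reg1 it was 1.65, above 99.8% of 3697. Reg4 was near the middle, with an SD of 0.32 that exceeded that of 61.4% of 599 such genes. For Reg3a the SD of 1.60, above 96.0% of 4194, rested on the early sham libraries with 0 and 2 counts. Over the later set alone, a choice made after seeing the data, it was 0.68, above 64.03% of 4326 such genes, while Reg3b, Reg3g and Reg1 stayed above 97.0, 99.6 and 99.9% of theirs. These shares carry no test.

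Other genes followed the members over the 12 libraries after the mean of each library set had been removed. Among 13074 genes, Reg3g ranked first for Reg3b (Pearson's r = 0.958), followed by Parp3 (0.904) and Sulf2 (0.873), and after Reg3b the genes most like Reg3g were Galnt1 (0.901) and 0610009O20Rik (0.873). For Reg4 they were Gm8806 (0.946), Slc41a1 (0.925) and Slamf7 (0.908). For Reg1 they were Rdh11 (0.847), Tcaf2 (0.831) and Zfp35 (0.827), and for Reg3a Pisd-ps2 (0.961), RP23-173N16.4 (0.940) and Isg20 (0.930). No other member was among the first 3 for Reg4, Reg1 or Reg3a, whose correlations with Reg3b were -0.06, -0.002 and 0.07. All points share their libraries, the group was left in, and with so many genes ranked these values are descriptions.

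Genes of microbial sensing and cytokine signalling, among them pathways known to control Reg3b and Reg3g, showed no call. Only transcripts were read, and the activity of these pathways was not measured. Of 25 genes of microbial sensing and IL-22 signalling, 23 had a row and 19 were tested by limma-voom. None was called (0 of 19), against 0.111% of all genes tested, and the median log2 fold change was 0.03. At an unadjusted p under 0.05 by limma-voom 1 of the 19 was lower, against 4.60% of all genes tested. That gene was Il17ra, a receptor subunit for IL-17, at -0.46 ± 0.20 on the log2 scale (SE, adjusted p = 0.435), and next by p came Traf6 (-0.34) and the kinase Jak1 (-0.20). Il22ra1, the IL-22 receptor chain, Stat3 and Myd88 were not called, with log2 fold changes of 0.10 ± 0.16, -0.17 ± 0.14 and 0.04 ± 0.24 (SE), values that were chosen after they had been seen.

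Among 25 other epithelial defence effectors, 20 had a row, 16 were tested by limma-voom and 1 was called, against 0.111% of all genes tested. The study had already listed that gene, Duox2, as lower after stroke in the same experiment, so the call is not independent evidence. Duox2, the dual oxidase that releases hydrogen peroxide at the gut surface, averaged 207 ± 159 CPM (SD, n = 7) in sham mice and fell to 12.4 ± 7.38 CPM (SD, n = 5) in pMCAO mice. Its values did not overlap, at 53.9 to 499 CPM and 3.25 to 22.7 CPM, and the log2 fold change was -3.50 ± 0.60 (SE, adjusted p = 0.0214). The Duox2 fold change stayed between -2.999 and -4.14 under all 25 alternatives, but the call was lost in 5 of them. By limma-voom the adjusted p was 0.145, 0.0510 and 0.0754 without pMCAO replicate 1, 4 or 5 (log2 fold changes -3.06, -3.43 and -3.59). It was 0.0557 with the group alone (-3.66) and 0.395 in the later set alone (-2.999). At an unadjusted p under 0.05 by limma-voom another 3 were higher and another 2 lower, against 5.43% and 4.60% of all genes tested. None of them was called (adjusted p from 0.142 to 0.325, limma-voom), and they are named here after their values were seen. The higher ones were the mucosal scavenger receptor Dmbt1 (log2 fold change 1.21), the galectin Lgals4 (0.59) and the acute phase protein Saa1 (2.18). The lower ones were Duoxa2 (-3.86 ± 1.30, SE), the maturation factor of Duox2, and Sprr2a3 (-1.45), whose near-identical copies make its counts uncertain. The median of the 16 was 0.26, with 9 higher.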

How the data were processed

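Counts per gene and CPM were deposited for 12 libraries, and the counts were used as deposited. Per the submitters' processing notes and the methods, the authors removed ribosomal RNA, aligned paired reads to GRCm38 (mm10) with STAR and assigned them with featureCounts. Whether counting used strand, and the annotation release, are not given in the sources used here. The deposited CPM equalled count over column total for 190260 of 190260 values (within 0.001). Each row reached at least 0.501 CPM in 4 libraries, so lowly expressed genes were filtered out before deposit. Columns of the authors' own comparison (fold change, p, FDR, average expression) were not used.

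filterByExpr (minimum count 10) kept 14462 genes and removed 1393. Counts were scaled by TMM and tested on group and library set with limma-voom in R 4.3.3 (edgeR 4.0.16, limma 3.58.1). The authors corrected for the day of tissue collection, which the labels do not give, so the library number in the titles stood in for it. The fit was tested on simulated data with larger changes than those of Reg3b and Reg3g, so that test does not cover differences of their size. The members, gene lists and library set were chosen with earlier results of these data known. All members were named, and of each list the genes called, or else the 3 with the smallest p (for markers, the highest mean CPM). Single values of 1 gene are left out here. Alternatives were other covariates, DESeq2 (1.42.0), edgeR, limma-trend, sample weights, other scalings, no filter, a replicate block and libraries left out. A floor of 3 counts covers counting error only. The p-values of group comparisons rest on the spread between these libraries, in which mouse, preparation and collection day cannot be told apart.

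Correlations and the Reg3b to Reg3g ratio (0.5 counts added) were tested by exact permutation (scipy 1.17.1). Transcript lengths came from GENCODE M21, and promoter windows, matched by symbol for 5 of 6 members, from RefSeq.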

Additional observations from a re-analysis of the deposited data

How the results depend on the processing

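No member was called under any of the 25 alternatives. The log2 fold change of Reg3b stayed positive, between 0.56 and 1.41 (adjusted p from 0.0576 to 0.760, limma-voom and the other tools), with an unadjusted p under 0.05 in 20 of 25. That of Reg3g lay between 0.44 and 1.49 (adjusted p from 0.129 to 0.731), with 17 of 25. Reg4 lay between 0.11 and 0.94 (adjusted p from 0.102 to 0.894), with an unadjusted p under 0.05 in 2 of 25, library number as a linear covariate (0.80) and the replicate block with group alone (0.94). Reg3a changed sign with the group alone (0.30), library number as a linear covariate (0.42), limma-trend (0.18), the replicate block with group alone (0.073) and without pMCAO replicate 2 (0.048), with -0.87 to 0.048 over single left-out libraries. Reg1 changed sign without sham replicate 6 (-0.28), pMCAO replicate 3 (-0.45) or pMCAO replicate 4 (-0.20), with -0.45 to 1.06 over single left-out libraries, and the cause was not tested.

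The number of genes called, 16 in the fit reported, was 0 with the group alone, 0 in the later set alone, 156 with library number as a linear covariate, 74 with DESeq2 and 35 with sample quality weights, and 2 to 54 with single libraries left out. Genes called of the 2 lists, 1 in the fit reported, numbered 0 with the group alone and in the later set, 2 with DESeq2, and 0 to 2 with single libraries left out. Scaling by total counts without TMM moved the median log2 fold change of all genes from 0.02 to 0.14, and Reg3b and Reg3g were then at 1.14 and 1.26.

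Groups share the replicate numbers 1 to 5, but same-numbered libraries deviated from their group means together in no regular way (r from -0.24 to 0.40). These deviations still held the library set, and replicates 2 and 3 were early in sham but later in pMCAO. The check therefore cannot decide whether the numbers pair mice, and the fit reported does not pair them. A replicate block with the library set gave 101 calls, and with group alone 243 calls and 2 of the lists. Under the block with the library set Reg3b was at 0.56, Reg3g at 0.44 and Reg1 at 0.87 (unadjusted p = 0.0489, limma-voom), and with group alone Reg1 was at 1.14 (unadjusted p = 0.0139). The log2 ratio of Reg3b to Reg3g changed from -0.12 to 0.0030 under the replicate block (exact sign-flip test, p = 1) and to 0.051 without pMCAO replicate 2 (exact permutation test). Counts of Reg3a (0 to 296) and Reg1 (8 to 1645) limit the precision of both, and with 12 libraries the intervals of Reg1 and Reg3a do not exclude a change of 1 log2 unit.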
